A study of Mus musculus with 7 samples.

Results

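Oligodendrocytes were compared with their progenitors by the amino acid that each tRNA carries, and then by the balance of tRNAs behind each amino acid. The members were the 52 anticodons listed in the deposited tables, all of which were used, summed under 23 labels by the text before the first hyphen of their names. These labels are the 20 standard amino acids, the initiator methionine tRNA (iMet), selenocysteine (SeC) and Sup, a label for tRNAs whose anticodons pair with stop codons. Below them lie 217 isodecoders, tRNAs that share an anticodon but differ elsewhere in sequence. The comparison used 5 of the 7 libraries of the series. Oligodendrocyte progenitor cells (OPCs, n = 3) of the mouse strain 129S/SvEv had been derived from epiblast stem cells and were grown with bFGF and PDGFA. Oligodendrocytes (OLs, n = 2) had been differentiated from OPCs with noggin, IGF-1, cyclic AMP, NT3 and the thyroid hormone T3. Astrocytes (n = 2), also made from OPCs, were used here only where an OL value is set beside them.

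The OL cultures also held cells that stayed undifferentiated, and both had been started from OPC replicates that were themselves sequenced. Which OPC replicates these were is not stated in the labels. The assay was QuantM-seq, in which an adapter is ligated to mature tRNAs before reverse transcription, and levels are given as RPM, reads of a tRNA scaled to the reads assigned to all cytosolic and mitochondrial tRNAs of the library. The depth, read from the step of 1 read in the RPM values, was between 1339020 and 2432670 tRNA reads per OPC library and 1590310 and 1605010 per OL library. The listed cytosolic tRNAs made up between 93.1% and 95.02% of the total in OPCs and 96.1% and 96.4% in OLs. Values from such bulk RNA cannot tell fewer cells of a type from less RNA per cell.

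A cell needs a charged tRNA for every amino acid, and most amino acids are served by several isoacceptors, tRNAs with different anticodons that read different codons. The first base of the anticodon, at position 34, pairs with the last base of the codon and often does so by wobble, so that U at this position mainly reads codons ending in A and C at this position reads codons ending in G. Many tRNA genes also encode the same anticodon in slightly different bodies, and cells can change which of these isodecoders fill a pool without changing the pool. Oligodendrocytes make large amounts of myelin protein as they mature, and several inherited disorders of myelin arise from mutations in genes of tRNA metabolism.

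Summed by amino acid, few totals passed the threshold between OLs and OPCs. SeC, Asp and iMet rose, and no amino acid total fell past the threshold. A limma adjusted p under 0.05 was found for 3 of the 23 labels (13.0%), all 3 higher in OLs. An unadjusted p under 0.05 was found for 9 (39.1%), of which 2 were lower. For 13 labels (56.5%) the OL libraries lay on 1 side of all OPC libraries.

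SeC, carried by the tRNA that inserts selenocysteine at recoded UGA codons, stood at 2279, 2207 and 2098 RPM in OPC replicates 1 to 3 and at 3287 and 3426 RPM in the OL replicates. Both OL libraries lay well above all OPC libraries. The log2 change was 0.61 with SE 0.059 (limma adjusted p 0.00266). The call held in each of 12 alternative fits of the totals, fits with a replicate block left aside. A single anticodon and a single isodecoder make up this total.

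Asp, an acidic amino acid with GUC as its only anticodon, stood at 46444, 47388 and 42161 RPM in OPCs and at 59387 and 57514 RPM in OLs. The groups were clearly apart, with a log2 change of 0.37 and SE 0.069 (limma adjusted p 0.0330). iMet, the tRNA that starts translation, stood at 16739, 16763 and 17067 RPM in OPCs and at 19965 and 19267 RPM in OLs. Its OPC libraries were close to each other, and the log2 change was 0.22 with SE 0.048 (limma adjusted p 0.0437). Elongator Met, which reads the same codon inside genes, was at 75277, 82431 and 76434 RPM in OPCs and at 74174 and 57906 RPM in OLs. The OL libraries were both lower, but they differed widely from each other, and the log2 change of -0.25 with SE 0.12 (limma adjusted p 0.177) was -0.072 without OL replicate 2 and -0.43 without OL replicate 1, where it passed (limma adjusted p 0.0299).

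The calls for Asp and iMet were lost when OPC replicate 1, OPC replicate 2, OL replicate 1 or OL replicate 2 was left out. Both were also lost with all 7 libraries, after rescaling to the listed tRNAs and under median-of-ratios scaling, where Asp had a limma adjusted p of 0.158. The fits with a replicate block are not among these alternatives. Without OPC replicate 3 the number past the threshold was 6 rather than 3, since Asn, Pro and Thr were added.

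Among the labels that did not pass, Asn was 36155, 39766 and 30792 RPM in OPCs and 46792 and 45676 RPM in OLs, a log2 change of 0.39 with SE 0.12 (limma adjusted p 0.0893). Pro was 7118, 6365 and 8101 RPM in OPCs and 8762 and 8958 RPM in OLs, a log2 change of 0.31 with SE 0.11 (limma adjusted p 0.110). For both, each OL library was above each OPC library, and the OPC libraries were spread more widely than the OL libraries. Thr was 10760, 10202 and 13089 RPM in OPCs and 12497 and 14186 RPM in OLs, and here the groups overlapped (log2 change 0.24, limma adjusted p 0.225). Sup was between 5.23 and 6.99 RPM in OPCs and at 5.66 and 16.8 RPM in OLs. Its value in OLs rests on OL replicate 2, without which the log2 change of 0.63 was -0.077, while without OL replicate 1 it was 1.34 and passed (limma adjusted p 0.00024).

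On the other side, Cys was 252, 232 and 307 RPM in OPCs and 180 and 209 RPM in OLs, a log2 change of -0.43 with SE 0.14 (limma adjusted p 0.0971). Cys was the least abundant of the 20 standard amino acids in these libraries. Phe, with GAA as its only anticodon, was 47656, 43590 and 51331 RPM in OPCs and 40595 and 41062 RPM in OLs, with a log2 change of -0.22 and SE 0.081 (limma adjusted p 0.110). Lys was 103685, 97133 and 106199 RPM in OPCs and 96823 and 92467 RPM in OLs, a log2 change of -0.11 with SE 0.062 (limma adjusted p 0.225). Each of these 3 totals was lower in both OL libraries than in any OPC library. Ile, Tyr and Gly were above in both OL libraries, by 0.23, 0.15 and 0.13, and Ala was below, by -0.057, without passing.

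The other 8 labels had log2 changes from 0.0034 to 0.17 with libraries that overlapped. The median change over all 23 labels was 0.098 as deposited, 0.060 after rescaling to the listed tRNAs and 0.012 after median-of-ratios scaling. Gln, Glu, His, Leu, Ser and Val, 6 of these 8, had the opposite sign under at least 1 of these scalings. None of the labels given their own values above changed sign with the scaling. Under median-of-ratios scaling Cys and Phe passed, both lower in OLs (limma adjusted p 0.0406 for each), and Asp and iMet did not.

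**Figure D1:**
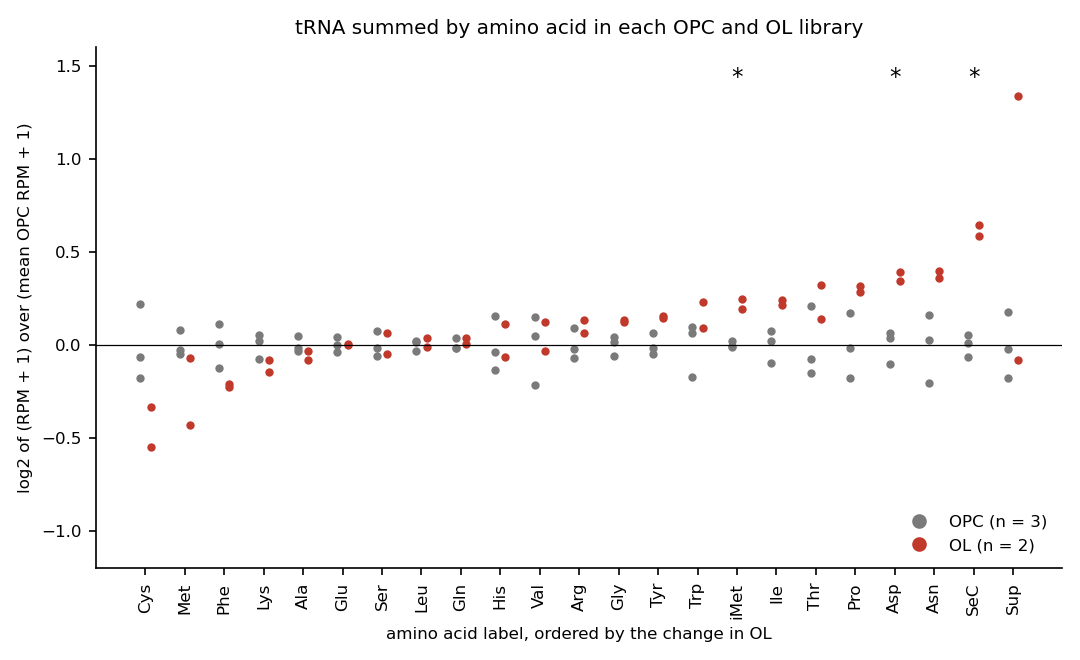
Each point is the summed tRNA of an amino acid label in 1 library, as the log2 of (RPM + 1) over (mean OPC RPM + 1), with OPC libraries in grey, OL libraries in red and an asterisk over labels with a limma adjusted p under 0.05. SeC, Asp and iMet carry asterisks, and the OPC libraries of Cys, Asn, Val and Pro are spread as widely as many of the differences between the groups.

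Against astrocytes, in a fit of all 7 libraries, 0 of 23 amino acid totals (0%) had a limma adjusted p under 0.05, and 4 had an unadjusted p under 0.05. SeC averaged 3356 ± 98.6 RPM in OLs and 2662 ± 163 RPM in astrocytes (SD, n = 2 each), with a log2 difference of 0.34 and SE 0.081 (limma adjusted p 0.0521). Cys averaged 194 ± 20.4 RPM in OLs and 355 ± 78.9 RPM in astrocytes (SD, n = 2 each), with a log2 difference of -0.85 and SE 0.19 (limma adjusted p 0.0521), and both OL libraries were below both astrocyte libraries. Asp averaged 58450.4 ± 1324 RPM in OLs and 55870.2 ± 9126 RPM in astrocytes (SD, n = 2 each), and these libraries overlapped (limma adjusted p 0.643).

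The labels were also pooled by the base at position 34 and by the kind of amino acid, as shares of the listed cytosolic RPM. tRNAs with G at position 34 made up 19.6%, 19.5% and 19.2% in OPCs and 21.4% and 21.4% in OLs. Both OL libraries were above all OPC libraries by more than either group's spread, with a difference of 1.94 points (two-sided exact permutation p 0.1, adjusted 0.25). This was the smallest p that 10 regroupings of 5 libraries allow, so no share could reach 0.05. The difference was between 1.83 and 2.00 points when each library was left out in turn. In astrocytes the share was 19.6% and 20.7%.

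The difference in G34 tRNAs was made of members that differed in both directions. Asp-GUC and Asn-GUU differed by 1.23 and 1.00 points, Ser-GCU by 0.215, Tyr-GUA by 0.212 and Gly-GCC by 0.110, while Phe-GAA differed by -0.826. Polar amino acids differed by 0.994 points (exact permutation p 0.1) and acidic ones by 1.03 points (exact permutation p 0.2), with both OL libraries above all OPC libraries. Aliphatic amino acids differed by -1.05 points (exact permutation p 0.1) and aromatic ones by -0.494 points (exact permutation p 0.2), with both OL libraries below. These 2 differences depend on the denominator, since as a share of all tRNA reads the aliphatic class differed by -0.036 points (exact permutation p 0.9) and the aromatic class by -0.248 points (exact permutation p 0.5), both with libraries that overlapped. The G34, polar and acidic differences on that denominator were 2.36, 1.36 and 1.33 points, with both OL libraries above. As shares of listed RPM, Asn-GUU alone was near the whole polar difference and Asp-GUC alone exceeded the acidic one. These classes and G34 thus largely repeat the same tRNAs. The largest aliphatic difference was that of Met-CAU, -1.47 points, at 7.69% in OL replicate 1 and 6.03% in OL replicate 2. Other aliphatic members differed in both directions. The shares of A34, C34 and U34 tRNAs and of basic amino acids overlapped between the groups.

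**Figure D2:**
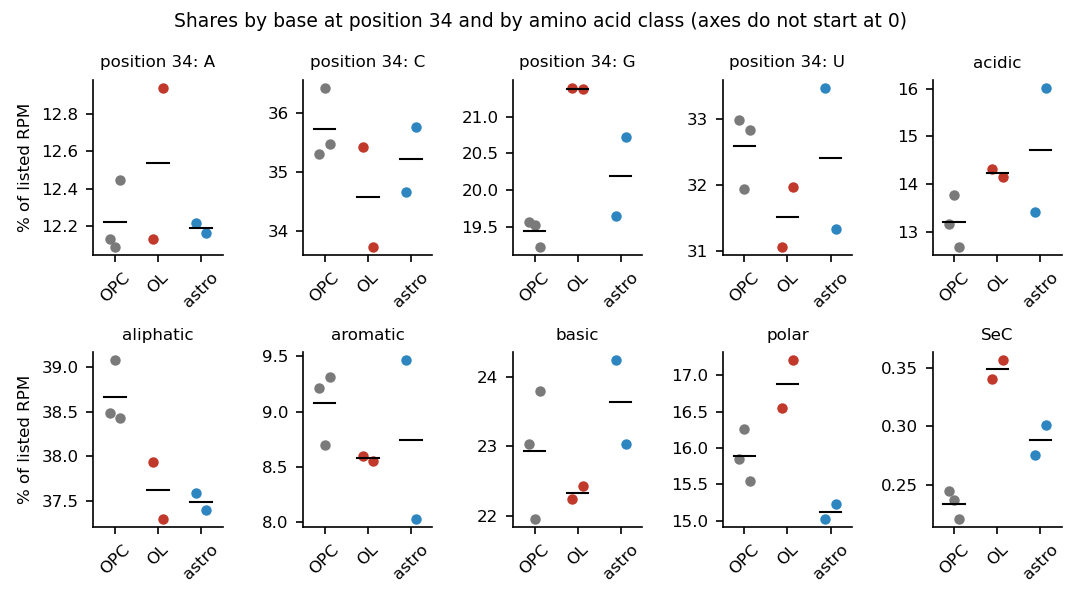
Each point is the share of the listed cytosolic RPM in 1 library, in percent, for tRNAs with each base at position 34 and for each class of amino acid, with bars at the group means of OPCs, OLs and astrocytes. The 2 OL libraries have nearly the same share of G34 tRNAs, 21.4%, above the OPC libraries at 19.2% to 19.6%.

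A steady total can hide a shift between isoacceptors, so each anticodon was compared with the other anticodons of its amino acid within each library. Such a ratio does not depend on how libraries are scaled. The Leu-UAA, Val-AAC and Pro-AGG ratios fell and the Val-UAC ratio rose. A limma adjusted p under 0.05 was found for 4 of 36 ratios (11.1%), with 1 higher (2.78%) and 3 lower (8.33%) in OLs. At an unadjusted p of 0.05 there were 11 (30.6%), and 16 (44.4%) had groups without overlap.

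Leu-UAA, which reads the codon UUA, held 48.4%, 50.9% and 51.1% of all Leu tRNA in OPCs and 43.8% and 42.1% in OLs. Its ratio to the other Leu tRNAs fell by 0.42 on the log2 scale (SE 0.085, limma adjusted p 0.0361), while the Leu total differed by 0.013. The other 4 Leu anticodons all averaged more in OLs. Leu-CAA, its partner in the same codon box, held 17.7%, 17.7% and 16.2% in OPCs and 20.3% and 20.2% in OLs (log2 change of the ratio 0.29, limma adjusted p 0.0846). Leu-UAG, which reads CUA, held between 8.93% and 10.1% in OPCs and 10.4% and 11.4% in OLs (log2 change 0.23, limma adjusted p 0.144). In astrocytes Leu-UAA held 43.3% ± 5.33 (SD, n = 2), and its ratio in OLs differed from that by -0.016 with libraries that overlapped (SE 0.15, limma adjusted p 0.920).

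Val-UAC, which reads GUA, held 45.4%, 47.5% and 46.3% of Val tRNA in OPCs and 52.4% and 52.0% in OLs. Its ratio rose by 0.34 on the log2 scale (SE 0.075, limma adjusted p 0.0361). Val-AAC, whose A34 is converted to inosine, reads codons that include GUU and GUC. It held 12.3%, 11.8% and 13.2% in OPCs and 9.83% and 9.90% in OLs, and its ratio fell by 0.37 on the log2 scale (SE 0.082, limma adjusted p 0.0361). Val-CAC, which reads GUG, held 42.4%, 40.7% and 40.5% in OPCs and 37.7% and 38.1% in OLs, and its ratio differed by -0.20 without passing (SE 0.075, limma adjusted p 0.141). On average Val-CAC thus held 41.2% of Val tRNA in OPCs and 37.9% in OLs, a larger difference in points than that of Val-AAC. The 2 OL libraries had nearly the same Val make-up. Against astrocytes, the Val-UAC ratio of OLs was higher by 0.41 (SE 0.076, limma adjusted p 0.0453), the only one of 36 that passed (2.78%), and the Val-AAC ratio differed by -0.43 (limma adjusted p 0.0525).

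Pro-AGG was a minor isoacceptor, with 2.40%, 2.91% and 2.50% of Pro tRNA in OPCs and 1.81% and 1.61% in OLs. Its ratio fell by 0.61 on the log2 scale (SE 0.11, limma adjusted p 0.0361), although in RPM it went only from 186 ± 15.6 (SD, n = 3) to 152 ± 9.84 (SD, n = 2), and Pro-UGG and Pro-CGG averaged more in OLs. Ratios of Ile-AAU (0.29), Ser-GCU (0.34), Thr-AGU (0.27) and Thr-CGU (-0.35) did not pass, with limma adjusted p-values from 0.109 to 0.144, though both OL libraries lay outside the OPC range for each. All 4 calls were lost when OPC replicate 2, OL replicate 1 or OL replicate 2 was left out, and those of Val-AAC and Val-UAC also without OPC replicate 1. With the log2 share in place of the ratio, or with all 7 libraries in the fit, there were 0 limma calls, with 12 and 11 ratios at an unadjusted p under 0.05.

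The U34 and C34 members of the same codon box were then set against each other, which follows the reading of codons that end in A or G. A limma adjusted p under 0.05 was found for 2 of 13 such pairs (15.4%), 1 in each direction (7.69% each), and 5 (38.5%) had groups without overlap. The log2 ratio of Leu-UAA to Leu-CAA was 1.45, 1.52 and 1.66 in OPCs and 1.11 and 1.06 in OLs. It fell by 0.46 (SE 0.098, limma adjusted p 0.000486) and lost its call without either OL library and with all 7 libraries. The log2 ratio of Val-UAC to Val-CAC was 0.10, 0.23 and 0.19 in OPCs and 0.47 and 0.45 in OLs. It rose by 0.29 (SE 0.096, limma adjusted p 0.0312), a call that was lost when OPC replicate 1, OPC replicate 2 or either OL library was left out, and with all 7 libraries. It was higher in OLs than in astrocytes by 0.36 (SE 0.081, limma adjusted p 0.0290, 1 of 13 pairs or 7.69%).

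The remaining 11 pairs did not pass. That of Thr-UGU and Thr-CGU differed by 0.26 (limma adjusted p 0.0521), with both OL libraries above all OPC libraries. Those of Ala-UGC and Ala-CGC (-0.12) and of Glu-UUC and Glu-CUC (-0.12) were below in both OL libraries. The authors list Lys-UUU, Glu-UUC, Gln-UUG and Arg-UCU as tRNAs with a thiolated U34, though Arg-UCU showed no mobility shift for it in their gels. Their ratios to the C34 partner differed by -0.011 for Lys (95% interval -0.23 to 0.20), -0.12 for Glu (-0.31 to 0.075), -0.090 for Gln (-0.33 to 0.15) and -0.094 for Arg-UCU (-0.29 to 0.10). A change of up to these bounds cannot be told from 0. With only 13 ratios the fit gave almost the same spread to each, so these p-values lean on all pairs.

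**Figure D3:**
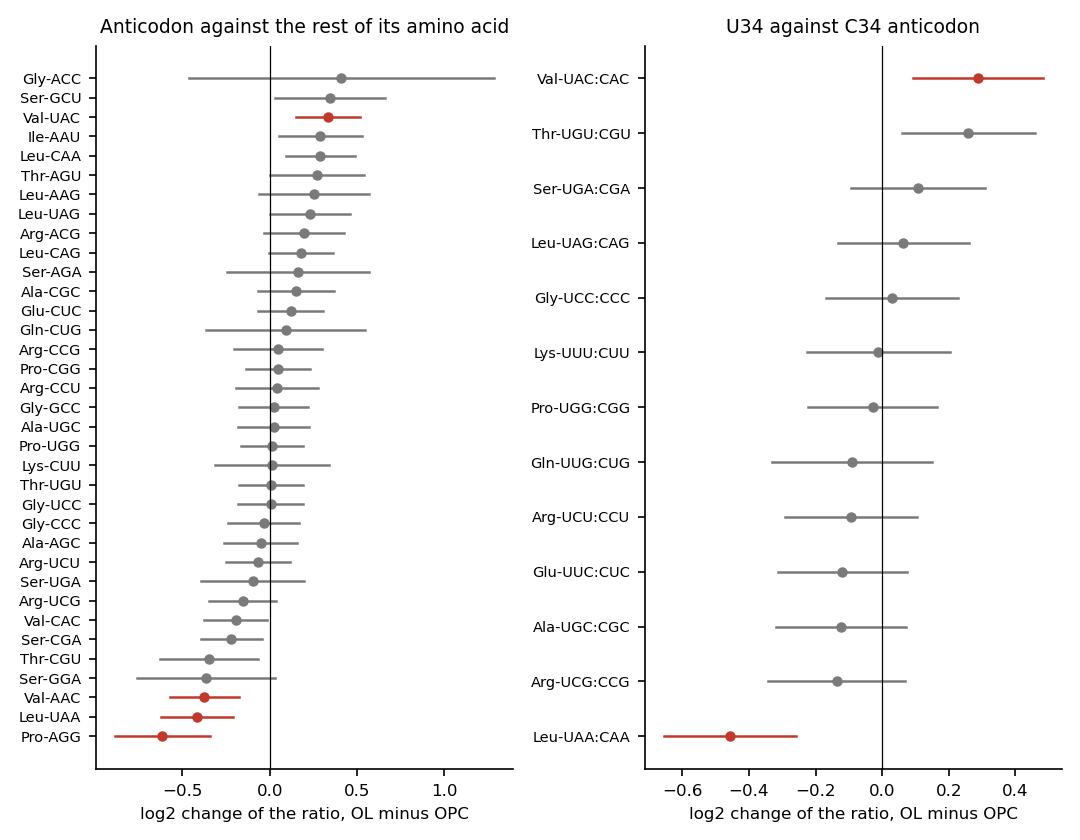
Points are log2 changes of the ratio in OLs minus OPCs with 95% intervals from limma, for each anticodon against the other anticodons of its amino acid (left, 35 ratios without Sup) and for each U34 against its C34 partner (right, 13 ratios), in red where the limma adjusted p was under 0.05. Leu-UAA is lower on both sides, and Val-UAC is higher on both.

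The size of each shift was expressed as the percentage points of an amino acid's tRNA that changed hands between its anticodons, comparing the mean OL with the mean OPC make-up. Leu was at 7.16 points, where the largest distance between any 2 OPC libraries was 3.16, and Val at 5.81 points, where it was 2.17. In both, every distance between an OL and an OPC library exceeded every distance within a group, which held for 2 of the 13 amino acids with several listed anticodons, Sup left aside. Ile was at 5.02 points against 4.52 within OPCs, and Ser at 4.78 against 6.13. Sup was at 11.9 points, which are a few reads. Lys was the reverse case, with 0.112 points between the groups and 6.53 between OPC libraries. Over the whole repertoire, 4.49% of RPM changed hands between amino acids, 5.50% between anticodons and 6.94% between isodecoders. The largest distances between 2 OPC libraries were 4.44%, 5.04% and 6.15%.

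Within anticodon pools, each isodecoder was compared with the other members of its pool. In Val-AAC, Val-CAC, Arg-CCU and Thr-AGU the ratio of the leading body rose while those of smaller ones fell. A limma adjusted p under 0.05 was found for 33 of 183 ratios (18.0%), with 12 higher (6.56%) and 21 lower (11.5%) in OLs. At an unadjusted p of 0.05 there were 60 (32.8%), and 101 (55.2%) had groups without overlap. In OLs against astrocytes 28 of 183 (15.3%) passed. The 33 lay in 18 of 42 pools and belonged to 12 amino acids. Ratios within a pool are linked, so a fall of 1 member raises the others, and isodecoders that differ by few bases can exchange reads in mapping, which was not tested. The authors report that sequence variants and read lengths differed in OLs for Phe-GAA, Lys-UUU, most Ala tRNAs and, modestly, Arg-UCU. Whether this affects the mapped counts of these tRNAs was not tested.

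By amino acid, Arg had 7 of 19 ratios past the threshold, Val 5 of 11, Ala 4 of 23, and Leu and Lys 3 each of 18 and 11. Asp, Gln, Glu, Gly, His, Ile, iMet, Trp and Tyr had 0. Over all 183 ratios 18.0% passed, and Ala and Leu did not exceed this share. Of the labels with 0, Gly had 6 of 8 and iMet 3 of 3 ratios with libraries that did not overlap. The share without overlap was 55.2% over all 183 ratios, and the iMet ratios are linked within 1 pool. The 21 isodecoders whose ratio fell made up a median of 10.4% of their pool in OPCs, and 1 of them more than 50%. The 12 whose ratio rose made up a median of 48.5%, and 5 of them more than 50%. This contrast is in part set by the measure, since a fall of small members raises the ratio of a leading one. The 150 that did not pass made up a median of 8.10%, near that of those that fell, and 24 of them more than 50%. A single gene stood behind 17 of the 21, 9 of the 12 and 106 of the 150 that did not pass (81.0%, 75.0% and 70.7%), by the gene copies listed in their names.

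In the Val-AAC pool, Val-AAC-5 held 49.0%, 47.9% and 45.5% in OPCs and 64.8% and 65.6% in OLs, a log2 change of the ratio of 1.05 with SE 0.12 (limma adjusted p 0.00656). Val-AAC-4 held 36.9%, 34.5% and 37.8% in OPCs and 23.4% and 25.4% in OLs, and its ratio fell by 0.83 (SE 0.13, limma adjusted p 0.0119). The groups lay far apart for both, and 17.7 points of the pool changed hands, where the largest distance between OPC libraries was 5.26. In RPM, Val-AAC-5 averaged 2009.8 ± 315 (SD, n = 3) in OPCs and 2259 ± 207 (SD, n = 2) in OLs, while Val-AAC-4 averaged 1554 ± 344 (SD, n = 3) and 848 ± 119.7 (SD, n = 2). In astrocytes Val-AAC-5 held 47.4% ± 0.582 (SD, n = 2), and OLs differed from them by 1.05 (SE 0.11, limma adjusted p 0.00408).

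Val-CAC showed the same form. Val-CAC-2, encoded by 5 genes, held 79.1%, 79.2% and 76.9% in OPCs and 88.4% and 87.4% in OLs (log2 change of the ratio 1.00, SE 0.13, limma adjusted p 0.0082). Val-CAC-1, encoded by 1 gene, held 7.70%, 7.63% and 8.13% in OPCs and 3.67% and 3.74% in OLs, and its ratio fell by 1.14 (SE 0.11, limma adjusted p 0.00466). The ratio of Val-CAC-3 fell likewise, by 0.91 (limma adjusted p 0.0112). In RPM, Val-CAC-2 averaged 10965 ± 1353 (SD, n = 3) in OPCs and 11709 ± 914 (SD, n = 2) in OLs, with libraries that overlapped. Val-CAC-1 averaged 1097 ± 172 RPM (SD, n = 3) in OPCs and 494 ± 48.6 RPM (SD, n = 2) in OLs. All 3 ratios also differed between OLs and astrocytes, by 1.21, -1.25 and -1.13 (limma adjusted p 0.00408 for each).

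Arg-CCU, which reads AGG, moved 14.5 points, against at most 7.94 between OPC libraries. Arg-CCU-4 rose from 59.7%, 55.9% and 51.8% of the pool in OPCs to 70.1% and 70.4% in OLs, a log2 change of the ratio of 0.90 with SE 0.17 (limma adjusted p 0.0212). Arg-CCU-1 fell by 0.88 (limma adjusted p 0.0119) and Arg-CCU-2 by 0.85 (limma adjusted p 0.0120), whereas the ratio of the whole Arg-CCU pool to other Arg tRNAs differed by 0.039. In Arg-CCG, Arg-CCG-2 held 33.0%, 32.7% and 33.3% in OPCs and 24.1% and 23.0% in OLs, and its ratio fell by 0.68 (SE 0.11, limma adjusted p 0.0120). The OPC values of Arg-CCG-2 were very close to each other.

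Thr-AGU moved 12.2 points. Thr-AGU-6 held 13.3%, 17.9% and 16.2% in OPCs and 5.84% and 5.80% in OLs, and its ratio fell by 1.59 (SE 0.18, limma adjusted p 0.00656). Thr-AGU-2, the leading body, went from 50.8% ± 3.14 (SD, n = 3) to 62.6% ± 1.42 (SD, n = 2), a log2 change of the ratio of 0.70 (limma adjusted p 0.0358). Against astrocytes the ratio of Thr-AGU-6 differed by -1.14 (SE 0.19, limma adjusted p 0.0141).

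The Ala pools moved 10.9 points in Ala-AGC and 10.4 in Ala-CGC. Ala-AGC-5, encoded by 3 genes, held 18.5%, 19.8% and 22.5% in OPCs and 10.3% and 10.1% in OLs, and its ratio fell by 1.16 (SE 0.15, limma adjusted p 0.0082). Ala-AGC-5 averaged 13259.8 ± 1540.04 RPM (SD, n = 3) in OPCs and 6345 ± 99.0 RPM (SD, n = 2) in OLs. Ala-CGC-1 and Ala-CGC-2 had nearly equal parts of their pool in OPCs, 49.9% ± 2.74 and 49.5% ± 2.73 (SD, n = 3), and 39.6% ± 0.574 and 59.8% ± 0.535 in OLs (SD, n = 2), with log2 changes of -0.61 and 0.60 (limma adjusted p 0.0383 for both). In astrocytes they held 55.3% ± 5.53 and 44.3% ± 5.56 (SD, n = 2).

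Cys-GCA moved the most points, 17.9, but the distance was 12.7 between OPC libraries and 13.8 between the OL libraries. The pool holds 22 listed isodecoders and only 264 ± 38.7 RPM (SD, n = 3) in OPCs. Cys-GCA-8 held 71.2%, 73.8% and 66.8% in OPCs and 57.3% and 50.7% in OLs, and its ratio fell by 1.03 (SE 0.24, limma adjusted p 0.0383). Cys-GCA-15 rose by 0.96 (limma adjusted p 0.0360) at 3.17 ± 1.28 RPM (SD, n = 3) in OPCs and 4.70 ± 0.473 RPM (SD, n = 2) in OLs, a handful of reads, and it did not pass without any 1 of the 5 libraries.

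**Figure D4:**
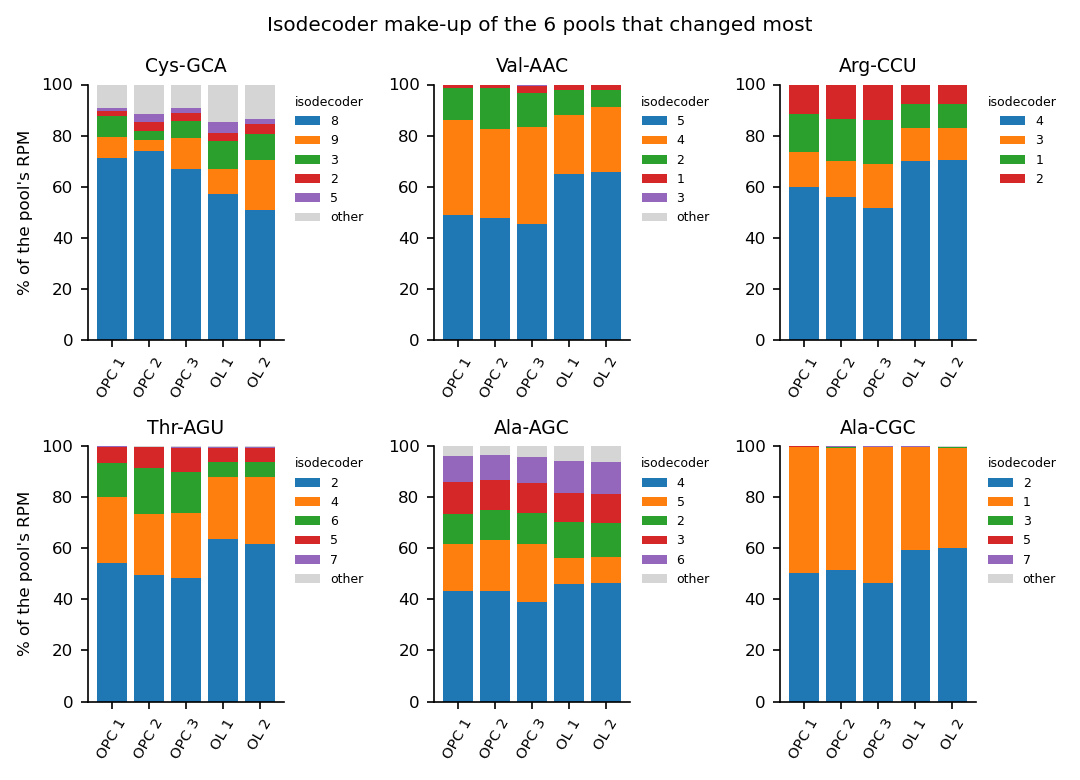
Stacked bars give the percent of each anticodon pool's RPM held by its 5 most abundant isodecoders and by all others, in each OPC and OL library, for the 6 pools with the most percentage points changing hands. The OL bars of Val-AAC, Arg-CCU, Thr-AGU, Ala-AGC and Ala-CGC resemble each other and differ from every OPC bar, with 64.8% and 65.6% for Val-AAC-5, while those of Cys-GCA differ between the 2 OL libraries.

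The largest falls among all ratios included bodies of other pools. Leu-CAA-4 held 5.24%, 6.17% and 6.20% of its pool in OPCs and 1.63% and 1.87% in OLs (log2 change -1.80, SE 0.14, limma adjusted p 0.00466). Its pool as a whole held a larger part of Leu tRNA in both OL libraries. Lys-UUU-2 held 3.56%, 3.94% and 4.14% in OPCs and 1.51% and 1.54% in OLs (log2 change -1.38, SE 0.12, limma adjusted p 0.00466). The ratio of Lys-UUU-1 to the rest rose by 1.36 as the counterpart, although its share of the pool averaged 96.0% ± 0.310 (SD, n = 3) in OPCs and 98.4% ± 0.0327 (SD, n = 2) in OLs, and on the log2 share scale its change was 0.036 and did not pass. Met-CAU-4 held 5.56%, 5.80% and 7.34% of elongator Met in OPCs and 2.58% and 2.76% in OLs (log2 change -1.26, SE 0.17, limma adjusted p 0.00989).

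The 2 largest rises were Leu-UAA-4 and Leu-UAA-3, with log2 changes of 2.09 and 2.01 (limma adjusted p 0.0112 and 0.0471). Leu-UAA-4 was at 0.747, 0 and 0.411 RPM in OPCs and at 5.03 and 3.12 RPM in OLs, and Leu-UAA-3 at 0, 1.99 and 1.64 RPM in OPCs and at 6.29 and 5.61 RPM in OLs. The detection limit, taken as 3 reads where none are counted, was between 1.23 and 2.24 RPM in OPC libraries, so the OPC values lie at the limit of detection and the folds depend on the pseudocount of 1. Both calls were lost with a pseudocount of 0.1 and without OPC replicate 3, OL replicate 1 or OL replicate 2. The detection limit covers counting error only.

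Of the 42 pools with several listed isodecoders, 19 moved more points between OLs and OPCs than any 2 OPC libraries differed by. In 13, every OL library differed from every OPC library by more than libraries of the same group did. The number of isodecoder ratios past the threshold was 24, 24 and 28 when OPC replicates 1, 2 and 3 were left out, and 0 without either OL library, where the single OL library left is assumed to vary like the OPCs. Across all libraries the single-gene isodecoders together held 29.2% ± 0.564 (SD, n = 3) of listed RPM in OPCs and 28.7% ± 0.644 (SD, n = 2) in OLs, and these overlapped.

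**Figure D5:**
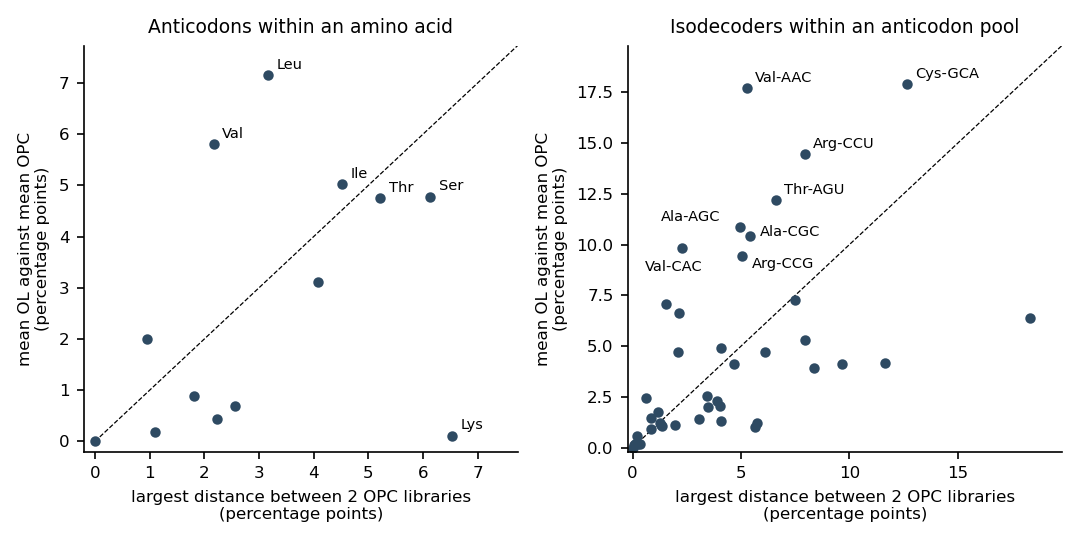
Each point is an amino acid with several listed anticodons (left, without Sup) or an anticodon pool with several isodecoders (right), with the largest distance between 2 OPC libraries on the horizontal axis and the distance between the mean OL and mean OPC make-up on the vertical axis, both in percentage points. On the left 4 of 13 and on the right 19 of 42 lie above the dashed line of equality, with Leu, Val, Val-AAC and Val-CAC well above it and Lys far below.

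Single anticodon levels were fitted over the whole table for comparison with these balances. A limma adjusted p under 0.05 was found for 4 of 52 anticodons (7.69%), with 3 higher (5.77%) and 1 lower (1.92%) in OLs. At an unadjusted p of 0.05 there were 13, and 25 (48.1%) had groups without overlap. iMet-CAU, SeC-UCA and Asp-GUC are the only listed anticodons of their labels, so their levels are the amino acid totals given above. Adjusted over 52 anticodons with a variance trend, the SeC-UCA call was lost when OPC replicate 1, OPC replicate 2 or either OL library was left out. It was also lost under median-of-ratios scaling and with the replicate block as numbered. The calls of iMet-CAU and Asp-GUC were lost in 7 and 8 of 12 alternative fits without a replicate block, which include leaving out the same 4 libraries. Leu-UAA was the remaining call, at 29606, 30014 and 31151 RPM in OPCs and 26226 and 26103 RPM in OLs (log2 change -0.21, limma adjusted p 0.0428). Its call was lost when OPC replicate 1, OPC replicate 2 or either OL library was left out. It was also lost without a variance trend and with all 7 libraries in the fit. Ile-AAU was at 11981, 10461 and 10358 RPM in OPCs and at 14127 and 14234 RPM in OLs (log2 change 0.38, limma adjusted p 0.0609), while Ile-UAU differed by 0.088 with libraries that overlapped.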

How the data were processed

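QuantM-seq libraries of tRNA from OPCs (n = 3), OLs (n = 2) and astrocytes (n = 2) were grouped by their titles. Per the labels and methods, the authors trimmed reads with cutadapt, mapped them with bowtie2 to a mature tRNA set of mm10 in which identical genes were collapsed, counted them per isodecoder with featureCounts at a minimum mapping quality of 10, and deposited RPM values per isodecoder and per anticodon, with replicates kept separate. RPM were scaled to the reads assigned to cytosolic and mitochondrial tRNAs. 2 deposited tables of the authors' own comparison of OPCs and OLs, made with DESeq2 and holding fold changes and p-values, were not used.

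RPM were summed by amino acid, and log2(RPM + 1), or the log2 ratio of a member to the rest of its pool with 1 RPM added to each side, was fitted in R 4.3.3 with limma 3.58.1 (lmFit, then eBayes), two-sided, on the 5 OPC and OL libraries. A variance trend was used for single anticodons only. Ratios needed a mean of at least 1 RPM for each member, and in a pool of 2 only the first was tested. Benjamini-Hochberg adjustment covered each whole table, and the threshold was an adjusted p of 0.05. OLs and astrocytes were compared in fits of all 7 libraries. A difference on the log2(RPM + 1) scale understates the change of low tRNAs. Pooled shares were compared by two-sided exact permutation tests. Points that changed hands are the summed gains in share. Values of 1 read were recovered from fewer than 100 low values per library, so no count test was run. The scripts were tested on simulated data.

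Every amino acid label was accounted for, and those past the threshold and otherwise the 4 highest and lowest were given in full. Isoacceptor ratios were named if past the threshold, with 6 others by size without overlap, and isodecoders with up to 6 per direction, and the 6 pools and 4 amino acids with the most points moved were described. Arg-CCG-2, Val-CAC-3, Lys and other members of the pools described were added after their values were seen. The members, lists and tests were chosen with earlier results of these data known. The Cys-ACA anticodon and 3 isodecoders were listed at 0 in all 5 libraries. Replicate libraries differed by far more than counting noise (chi-square per degree of freedom 26.7 to 172), so each was counted as a sample. Sequences and coordinates of tRNA genes were not used here. Alternatives covered pseudocounts of 0.1 and 10, a threshold of 0.01, the variance trend, minimum levels, scaling, the libraries in the fit, a replicate block and leaving out each library.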

Additional observations from a re-analysis of the deposited data

Results flagged for a closer look

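The comparison of OLs with astrocytes asks whether a balance called between OLs and OPCs also sets OLs apart from the other cell type made from OPCs. Both comparisons share the OL libraries, so they are not independent. The balances named were chosen for their difference from OPCs, so a raised share past the threshold against astrocytes was built in. Over all ratios, 28 of 183 for isodecoders (15.3%), 1 of 36 for isoacceptors (2.78%) and 1 of 13 U34 to C34 pairs (7.69%) passed against astrocytes. The difference itself was tested with limma in the fit of all 7 libraries, and 9 of the 18 balances named by size and called between OLs and OPCs were past the threshold there too. For isoacceptors these were Val-UAC against the rest of Val, higher in OLs by 0.41, and Val-UAC against Val-CAC, higher by 0.36. The isodecoder ratios higher in OLs were Val-AAC-5 (1.05), Val-CAC-2 (1.21) and Lys-UUU-1 (0.59). Those lower in OLs were Val-CAC-1 (-1.25), Ala-AGC-5 (-0.77), Thr-AGU-6 (-1.14) and Lys-UUU-2 (-0.60). No OL library overlapped an astrocyte library in any of them, and limma adjusted p-values ran from 0.00408 to 0.0453. Ratios of the same pool, such as those of Lys-UUU-1 and Lys-UUU-2, are linked, and Val-UAC enters both isoacceptor ratios. The other 9 did not pass. Among them the Leu-UAA ratio differed from astrocytes by -0.016, Leu-UAA against Leu-CAA by -0.083, Pro-AGG by -0.31, Leu-CAA-4 by -0.51 and Met-CAU-4 by -0.53 (limma adjusted p-values from 0.0704 to 0.920). Groups of 2 and 3 libraries are too small to look for single outlying samples.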

How the results depend on the processing

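Limits rest on the size of the groups: with 2 OL libraries, 1 library decides many calls. Compared with 3 amino acid totals past the threshold, there was 1 at a threshold of 0.01, 1 with all 7 libraries and 1 after rescaling to the listed tRNAs, and between 1 and 6 when each library was left out. Compared with 4 isoacceptor ratios, there were 0 at 0.01, 0 with all 7 libraries, 0 as log2 shares, 11 with a variance trend, 8 with a minimum mean of 100 RPM, and between 0 and 6 when each library was left out. Compared with 2 U34 to C34 ratios, there were 1 at 0.01 and 0 with all 7 libraries, and between 0 and 3 when each library was left out. Compared with 33 isodecoder ratios, there were 10 at 0.01, and between 0 and 28 when each library was left out. Compared with 4 anticodons, there were 0 at 0.01, 1 without a variance trend, 1 with all 7 libraries and 1 under median-of-ratios scaling, and between 0 and 4 when each library was left out. Where a count was 0, the number with an unadjusted limma p under 0.05 was between 4 and 12 for isoacceptors, 2 or 3 for U34 to C34 ratios, between 5 and 13 for anticodons and between 38 and 60 for isodecoders. The causes were not tested.

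Some values changed sign. Leaving out each library in turn, the change of Sup ran from -0.077 to 1.34 around 0.63 and the difference in A34 tRNAs from -0.090 to 0.72 around 0.31 points, both lowest and below 0 without OL replicate 2. As RPM rather than as a share of listed tRNAs, basic amino acids differed by 0.0014 points rather than by -0.593.

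The numbers in the labels do not say which OL culture came from which OPC replicate. With the replicate block as numbered there were 2 amino acid totals, 0 isoacceptor ratios, 1 U34 to C34 ratio, 28 isodecoder ratios and 0 anticodons past the threshold. Deviations from the group means over 51 anticodons correlated at -0.38 for replicates numbered 1 and -0.41 for those numbered 2. The deviations of the 2 OL libraries are exact negatives of each other. Pairs with crossed numbers therefore had the opposite sign by construction, and these values cannot tell which pairing holds. A replicate block with crossed numbers, added after seeing the data, gave 7 amino acid totals, 19 isoacceptor ratios, 3 U34 to C34 ratios, 0 isodecoder ratios and 15 anticodons.

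Over single named values and their alternatives, 551 were counted as the same, 144 lost a call, 34 gained a call and 1 changed sign. For tested values, the same means an unchanged direction and side of the threshold. The 551 also include points that changed hands with each library left out, which have no threshold. Those were counted as the same if they moved by less than the largest distance between OPC libraries. Leaving out each library for pooled shares and points that changed hands was also added after seeing the data.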
